A study of Rattus norvegicus with 3 samples.

Results

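7 genes of the retinoic acid pathway, Stra6, Rdh10, Aldh1a1, Aldh1a2, Aldh1a3, Crabp1 and Cyp26b1, were followed across the cell types of the rat thymic stroma. They form a list of names picked with earlier results of these data known, and all 7 were found among the 34034 genes of the stromal library. The data came from thymus of Lewis rats, an inbred strain, aged 8 weeks, with no treatment or genetic change named in the labels. For the stromal library the tissue was dissociated by Liberase TH with DNase I, and cells without CD45, a protein on the surface of blood cells, were taken by magnetic and flow sorting. The other library held thymocytes, which develop into T cells, freed by collagenase D with DNase I. A spatial section of the same strain and age was not used, because its tables hold no values per gene. How many animals gave each library is not given in the sources used here. Each group had 1 library, so there was no replicate check and no test, and every interval below is a 95% interval for counting error only.

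Vitamin A travels in blood as retinol bound to a carrier protein, and the membrane receptor Stra6 can bring it into cells. Retinol is oxidised to retinal, a step carried out by Rdh10 among others, and retinal is oxidised irreversibly to retinoic acid by the dehydrogenases Aldh1a1, Aldh1a2 and Aldh1a3. Crabp1 binds retinoic acid in the cytoplasm, enzymes of the Cyp26 family break it down, and what remains acts in the nucleus through receptors of the Rar and Rxr families. In the thymus, mesenchyme is a known source of retinoic acid, and retinoids are known to act on epithelial growth and differentiation.

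Of 50 genes, the members and 43 others of the pathway, 40 were matched by symbol to promoters of 300 bases (250 before the start site and 50 from it on) from RefSeq, build GRCr8. Both strands were searched for the DR5 retinoic acid response element, a direct repeat with a spacer of 5 bases that the Rar and Rxr receptors bind. It was found in 128 of 33469 promoters (0.382%), in 2 of the 41 promoters of the 40 genes and in 0 of 6 promoters of members. The 2 genes were Cyp26a1, the relative of Cyp26b1, and the receptor gene Rarb. Both were on the list as targets of retinoic acid, so 2 of 41 cannot be read as an enrichment in the pathway. Their elements are shown because the levels of these genes are set beside those of the members below. For Cyp26a1 the 250 bases before the start site are given (chr1:244883572-244883821, plus strand), with the element in capitals, read on the minus strand and beginning 92 bases before the start site. For Rarb the element alone is given (chr15:11336416-11336432, plus strand), 24 bases after the start site. A match of letters is a description and not a bound site.
Cyp26a1: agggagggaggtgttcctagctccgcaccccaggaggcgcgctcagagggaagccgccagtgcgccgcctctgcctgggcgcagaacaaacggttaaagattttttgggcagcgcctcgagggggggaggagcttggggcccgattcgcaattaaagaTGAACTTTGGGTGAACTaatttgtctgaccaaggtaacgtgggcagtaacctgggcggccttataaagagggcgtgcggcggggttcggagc
Rarb: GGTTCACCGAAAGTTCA

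The stromal library had 16160 barcodes, of which 13226 carried a label from the authors, with a median of 9087.5 UMIs per cell (unique molecular identifiers, tags that let each RNA molecule be counted once). Levels are in CPM, the UMIs of a gene per 1000000 UMIs of a label. The cells bore 29 labels, and the 24 labels of at least 20 cells were ranked. Mesenchymal labels (TMC1 to TMC4 and capFb) made up 62.1% of cells and 60.0% of UMIs, and epithelial labels (names starting with TEC) 17.4% of cells and 21.9% of UMIs. Despite the sort, 1095 cells bore blood labels (Myeloid, B cell and Thymocyte). The labels matched their markers in part. The 4 mesenchymal markers Pdgfra, Col1a1, Dcn and Lum were highest in TMC2 or capFb, the 4 mural markers in vSMC/PC, and the 3 cortical epithelial markers in TEC:cTEC. Of the 3 medullary epithelial markers Aire and Cldn4 were highest in TEC:mTEC2, but Krt14 was highest in TEC:cTEC (4142 CPM), which also had the highest sum of the 3 (4197 CPM, against 853 CPM in TEC:mTEC2). The label MEC, which the sources used here do not spell out, had the highest level of all 4 mesothelial markers (Msln, Upk3b, Lrrn4 and Wt1), with Msln at 3513 CPM and Krt8 at 437 CPM. Its summed mesenchymal markers (5573 CPM) were as high as its mesothelial ones (5298 CPM), 41 of its 48 cells held at least 10 mesenchymal marker UMIs, and it was highest for Flt3 (213 CPM), with the other dendritic cell markers Xcr1 and Ccr7 at 0 UMIs. The label nmSC was highest for 3 Schwann cell and 3 lymphatic endothelial markers alike. UMIs of the 4 mesenchymal markers also occurred outside the mesenchymal labels: 28 of 29 cells of TEC:aaTEC2 held at least 10 of them, as did 136 of 1018 cells of TEC:early Pr. The 2 libraries shared 38 barcodes, and the 28 of them annotated in both held between 0 UMIs (Stra6) and 23 UMIs (Aldh1a3) of a member in all.

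The members divided between mesenchyme and epithelium. Pooled mesenchymal cells stood at least 3-fold above pooled epithelial cells for 4 of 7 members, Crabp1 (6.71-fold, 6.15 to 7.33), Cyp26b1 (4.64-fold, 3.08 to 7.27), Aldh1a2 (4.52-fold, 4.13 to 4.96) and Aldh1a3 (4.48-fold, 4.17 to 4.81), where 9.96% of all genes tested did so. Without cells of at least 10 mesenchymal marker UMIs outside the mesenchyme and MEC, the ratio was 147 for Crabp1, 7.08 for Aldh1a2 and 7.56 for Aldh1a3, and with cells thinned to 1000 UMIs it was 10.2 for Crabp1 and 7.55 for Aldh1a2. Epithelial cells stood at least 3-fold above mesenchymal cells for 2 members, Stra6 (14.2-fold) and Aldh1a1 (10.1-fold), where 18.0% of all genes tested did so. Rdh10 fell in neither set, with 19.5 CPM in mesenchymal and 10.8 CPM in epithelial cells, a ratio of 1.81 (1.60 to 2.05). By single label, 1 of 7 members, Stra6, had a highest label at least 3-fold above the next with at least 20 UMIs, against 9.44% of all genes tested. That call rests on 24 UMIs, 12 of them in 1 cell, and so would not stand without that cell. With cells thinned to 1000 UMIs the called member was Aldh1a2 in place of Stra6, and with the authors' initial clusters or with labels of at least 50 cells Aldh1a1 was called beside Stra6. The median ratio of the highest label to the next was 1.33 for the members and 1.21 for all genes tested.

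**Figure D1:**
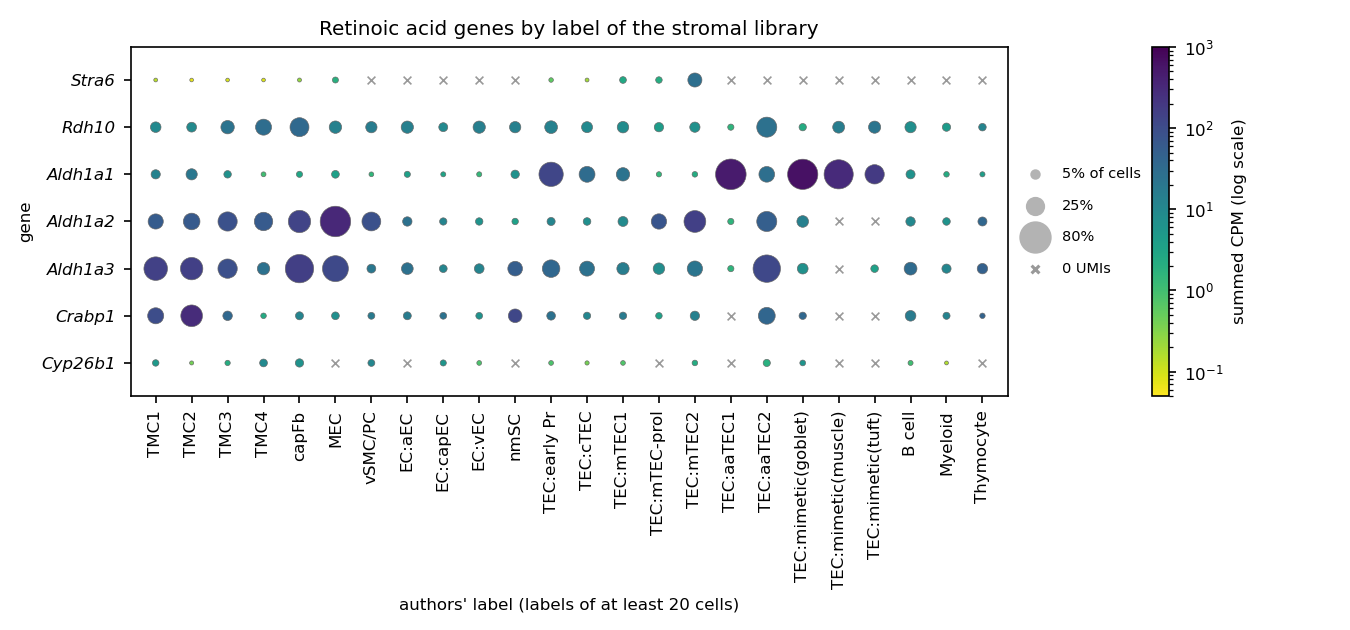
Level of the 7 members (rows) in the 24 labels of at least 20 cells (columns); colour gives summed CPM on a log scale, dot size the percent of cells with a UMI, and a cross marks 0 UMIs. Aldh1a1 is high in early, aaTEC1 and mimetic epithelial labels, Aldh1a3 in capFb, TMC2 and TMC1, Crabp1 in TMC2 and TMC1, and Stra6 is at or under 2.64 CPM outside TEC:mTEC2.

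Stra6, the receptor for the retinol carrier, was barely detected, and most of its few UMIs lay in medullary epithelium. Of 63 UMIs in all annotated cells, 24 were in TEC:mTEC2, 17 in TEC:mTEC1, 7 in TEC:early Pr and 10 in mesenchymal labels. TEC:mTEC2, the label with the highest level of Aire (468 CPM), the regulator of tissue-restricted genes in medullary epithelium, stood at 27.4 CPM (17.6 to 40.8) with a UMI in 10 of 61 cells. One cell held 12 of those 24 UMIs. TEC:mTEC1 followed at 2.64 CPM (1.54 to 4.23), a ratio of 10.4 (5.35 to 20.6). Below it, TEC:mTEC-prol at 2.19 CPM rested on 3 UMIs, and 13 of 24 labels had 0 UMIs. In vSMC/PC a count of 0 allows up to 1.09 CPM.

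Rdh10, which oxidises retinol to retinal, was spread over all 24 labels. The label capFb was highest at 35.1 CPM (32.3 to 38.2, 568 UMIs), followed by TMC4 at 30.1 CPM (27.0 to 33.5, 348 UMIs). The interval of their ratio, 1.17 (1.02 to 1.34), lay just above 1. From TMC4 downward no neighbour in the order differed beyond counting error, as 22 of 23 neighbouring pairs had a ratio interval that held 1. Steps between distant labels were larger: capFb stood 3.83-fold (3.29 to 4.47) and TMC4 3.28-fold (2.78 to 3.88) above TMC2, which had 9.18 CPM. The lowest value of Rdh10, 1.59 CPM in TEC:aaTEC1, rests on 1 UMI, so which label is lowest is not resolved. Among the 3 endothelial labels it lay between 9.44 and 14.4 CPM, and in TEC:early Pr, TEC:cTEC and TEC:mTEC1 between 8.55 and 13.6 CPM.

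Aldh1a1 was the epithelial dehydrogenase, with 77.4% of its 4016 UMIs in epithelial labels. TEC:mimetic(goblet), cells named by the authors for a goblet cell resemblance, stood at 653 CPM (600 to 709) with a UMI in 44 of 55 cells. TEC:aaTEC1 had 492 CPM (439 to 550, 36 of 44 cells) and TEC:mimetic(muscle) 303 CPM (258 to 354, 26 of 35 cells). These 3 labels differed from each other beyond counting error, which leaves out uneven spread over cells, with up to 71 UMIs in a goblet-labelled cell. With cells thinned to 5000 UMIs the shares of cells with a UMI were 70.4%, 78.0% and 70.6%, with overlapping intervals. TEC:mimetic(tuft) had 189 CPM (141 to 247) with a UMI in only 8 of 25 cells, and the 1018 cells of TEC:early Pr had 124 CPM (118 to 131, 521 cells). Then came a step of 3.92-fold (3.32 to 4.65) down to TEC:cTEC at 31.7 CPM. TEC:aaTEC2 at 27.5 CPM, on only 15 UMIs, did not differ beyond counting error from TEC:cTEC above or TEC:mTEC1 at 23.2 CPM below. TEC:cTEC and TEC:mTEC1 were not set against each other directly. The Aire-high TEC:mTEC2 and TEC:mTEC-prol were at the other end, with 2 UMIs each (2.29 and 1.46 CPM). A label of 9 cells, TEC:mimetic(neuroendo), too small to be ranked, held 189 UMIs (1521 CPM) with a UMI in 8 cells, 107 of them in 1 cell.

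Within the epithelium, high Aldh1a1 followed one of the authors' first clusters rather than a single label. Cluster TEC-e had 601 CPM, against 99.9 CPM in TEC-b, the next, and 7.10 CPM in TEC-d. The cells of TEC-e had 723 CPM when labelled goblet, 541 when labelled aaTEC1, 365 when labelled muscle and 480 in the 6 cells labelled tuft. The 15 tuft-labelled cells that lay in TEC-a instead had 36.8 CPM on 5 UMIs. The genes that formed the clusters may include Aldh1a1, so this is a description of where it lies. Outside the epithelium TMC2 had 20.05 CPM (18.4 to 21.8) and TMC1 12.3 CPM, and TMC2 stood 19.3-fold (11.0 to 37.6) above TMC4, which had 12 UMIs. All endothelial, mural and blood labels were at or below 6.30 CPM.

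Aldh1a2 was mainly mesenchymal, with 84.0% of its 7512 UMIs in mesenchymal labels, but its highest levels lay in MEC and in TEC:mTEC2. MEC had 332 CPM (285 to 385, 175 UMIs) with a UMI in 39 of 48 cells, 2.14-fold (1.70 to 2.69) above the next label. The level was 321 CPM in its 41 cells with at least 10 mesenchymal marker UMIs and 485 CPM (287 to 766) in the other 7. TEC:mTEC2 had 155 CPM (130 to 184, 136 UMIs) in 25 of 61 cells, not different beyond counting error from capFb at 134 CPM (129 to 140, 2171 UMIs). Below capFb the labels fell in small steps. TMC3 had 87.1 CPM, vSMC/PC 85.4 CPM, TEC:mTEC-prol 73.9 CPM, TMC2 64.0 CPM, TMC4 60.8 CPM and TMC1 57.7 CPM, and each neighbouring ratio interval in this run held 1. Across the run the levels still differed, with intervals of 81.6 to 92.9 CPM in TMC3 and 53.8 to 61.8 CPM in TMC1. capFb stood 2.33-fold (2.15 to 2.53) above TMC1. The mural label vSMC/PC, named by markers of vessel wall cells, stood 7.45-fold (5.52 to 10.2) above the endothelial label EC:capEC.

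In the medullary epithelium Aldh1a2 was high in the labels with the least Aldh1a1. TEC:mTEC2 stood 16.9-fold (12.4 to 23.4) and TEC:mTEC-prol 8.06-fold (5.79 to 11.3) above TEC:mTEC1, which had 9.17 CPM. The difference was there within a single cluster: in TEC-d the mTEC2 cells had 162 CPM, the mTEC-prol cells 78.1 CPM and the mTEC1 cells 4.86 CPM. In TEC:mTEC-prol the UMIs were unevenly spread, as 15 of 76 cells held all 101 and 1 cell held 20. Cells of TEC:early Pr, TEC:mTEC1 and TEC:cTEC had between 38.7 and 51.6 CPM where they lay in cluster TEC-c and between 0 and 1.85 CPM where they lay in TEC-b. In TEC-c 84.3% of cells held at least 10 UMIs of the 4 mesenchymal markers, and in TEC-b 2.38%.

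Aldh1a3 was mesenchymal too, with 88.4% of its 11233 UMIs in mesenchymal labels, and was level in 3 of them. capFb had 157 CPM (151 to 163), TMC2 152 CPM (148 to 157) and TMC1 150 CPM (143 to 156), and their neighbouring ratio intervals held 1. TMC3 had 87.6 CPM (82.0 to 93.4) and TMC4 25.5 CPM (22.7 to 28.6). TMC4 was thus 6.16-fold (5.46 to 6.97) below capFb for Aldh1a3, while for Aldh1a2 it stood level with TMC1 and TMC2. In capFb the gene had a UMI in 952 of 1358 cells (70.1%), in TMC2 in 43.3% and in TMC4 in 12.6% of cells. Depth differed between these labels, and with cells thinned to 5000 UMIs the shares were 48.2% in capFb, 34.0% in TMC2 and 8.23% in TMC4. MEC had 112 CPM (85.2 to 144). A label of 12 cells, TEC:mimetic(basal), too small to be ranked, had 171 CPM on 17 UMIs. TEC:aaTEC2 had 117 CPM, with all 64 UMIs in the 28 cells that held at least 10 mesenchymal marker UMIs. In TEC:early Pr the gene had 38.1 CPM with a UMI in 266 of 1018 cells.

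**Figure D2:**
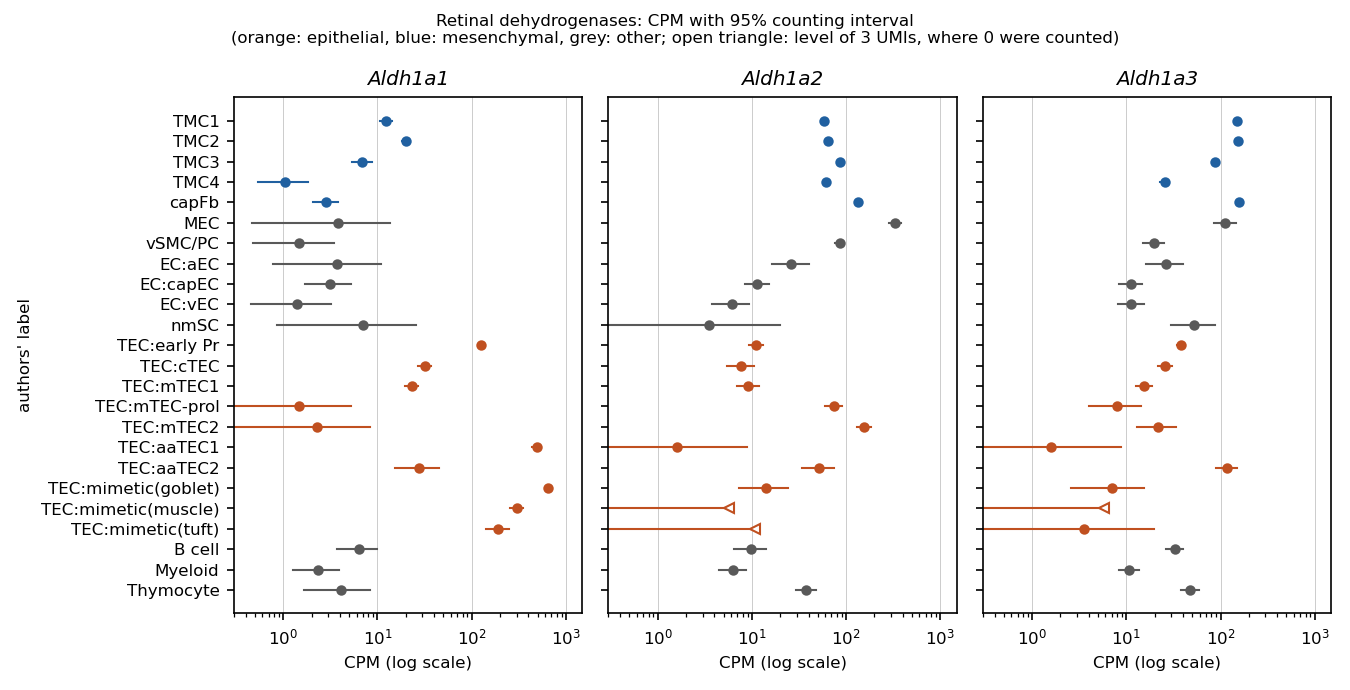
CPM of Aldh1a1, Aldh1a2 and Aldh1a3 (log scale, lower bounds under 0.3 run off the axis) in the 24 labels, with 95% intervals for counting error; open triangles give the level of 3 UMIs where 0 were counted. Aldh1a1 peaks in the goblet label at 653 CPM, Aldh1a2 in MEC at 332 CPM, and Aldh1a3 in capFb, TMC2 and TMC1 between 150 and 157 CPM.

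Crabp1, the cytoplasmic binder of retinoic acid, marked TMC2 above the other mesenchymal labels. TMC2 had 294 CPM (288 to 301) on 7845 of the 10826 UMIs, with a UMI in 1246 of 3080 cells and up to 68 UMIs in a cell. TMC1 had 101 CPM (95.6 to 106), TMC3 36.0 CPM (32.4 to 39.8), capFb 11.5 CPM and TMC4 2.42 CPM. The steps were large, 2.92-fold (2.76 to 3.09) from TMC2 to TMC1, 25.5-fold (22.1 to 29.7) to capFb and 121-fold (83.9 to 183) to TMC4. Between TMC2 and TMC1 ranked nmSC at 120 CPM (83.0 to 168), where 34 UMIs came from 6 of 39 cells, all 6 of them among the cells with at least 10 mesenchymal marker UMIs. The label Thymocyte of the stromal library had 43.7 CPM, with 60 of its 75 UMIs in 1 cell.

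Cyp26b1, the breakdown enzyme among the members, was low everywhere, with 411 UMIs in all annotated cells. vSMC/PC had 10.7 CPM (7.48 to 14.8) and TMC4 9.61 CPM (7.90 to 11.6), which did not differ beyond counting error. In vSMC/PC the 36 UMIs came from 14 of 452 cells, 16 of them from 1 cell. capFb had 6.44 CPM (5.26 to 7.80), EC:capEC 5.62 CPM (3.64 to 8.29) and TMC1 4.92 CPM (3.83 to 6.22). TMC2, the largest label, had 0.41 CPM (0.21 to 0.74) on 11 UMIs. Cyp26b1 in TMC2 was therefore 23.3-fold (12.5 to 48.0) below TMC4, 15.6-fold (8.37 to 32.2) below capFb and 11.9-fold (6.27 to 25.0) below TMC1. Among endothelial labels the gene was higher in EC:capEC than in EC:vEC, by 6.78-fold (2.07 to 35.1), with 3 UMIs in EC:vEC. The label TEC:mimetic(goblet) had 5.83 CPM from 5 UMIs of a single cell, and 8 of 24 labels had 0 UMIs.

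Across the 5 mesenchymal labels the members followed different orders. TMC2 was highest for Crabp1 and Aldh1a1, lowest for Cyp26b1 and, within counting error of TMC1, lowest for Rdh10. TMC4 was lowest for Crabp1, Aldh1a1 and Aldh1a3 and highest for Cyp26b1. capFb was highest for Rdh10, Aldh1a2 and, within counting error of TMC1 and TMC2, Aldh1a3. TMC3 lay between the others for Rdh10, Aldh1a1, Aldh1a3, Crabp1 and Cyp26b1.

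**Figure D3:**
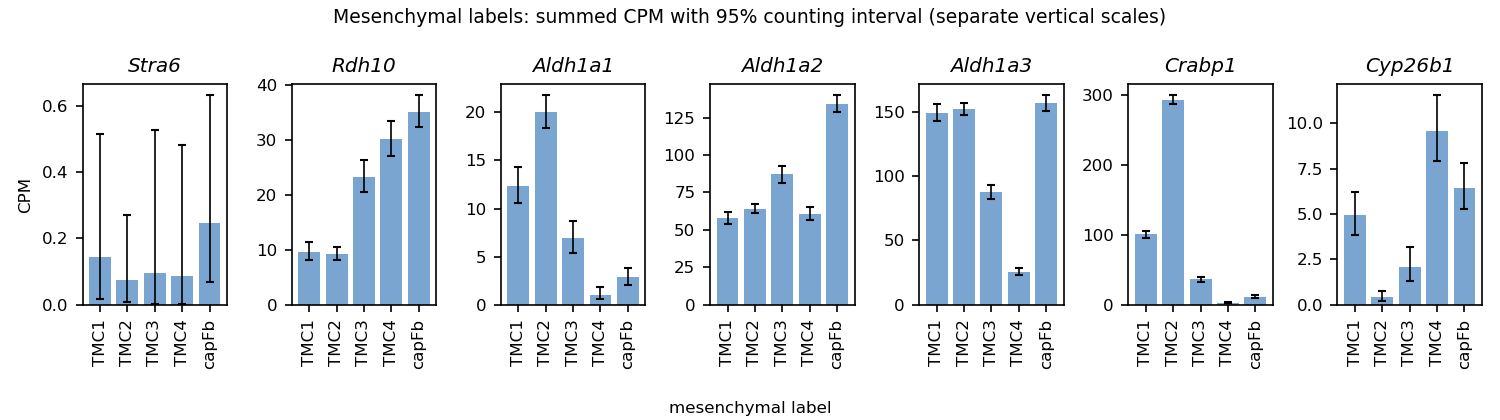
Summed CPM of each member in the 5 mesenchymal labels (bars from 0, a separate vertical scale per gene) with 95% intervals for counting error. Crabp1 runs from 294 CPM in TMC2 to 2.42 CPM in TMC4 and Cyp26b1 from 9.61 CPM in TMC4 to 0.41 CPM in TMC2. By value the order of labels is reversed except for TMC1 and TMC3, as TMC1 is above TMC3 for both genes.

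Mesenchymal marker UMIs moved with several of the low levels outside the mesenchyme, so each member was also read in cells with at least 10 and with under 10 UMIs of Pdgfra, Col1a1, Dcn and Lum together. Outside the mesenchymal labels and MEC, 797 of 4962 cells held at least 10, and they held 24.9% of all UMIs. These cells held 95.05% of the Crabp1 UMIs found there, 67.9% of those of Aldh1a3, 57.5% of those of Aldh1a2, 37.8% of those of Rdh10, 25.5% of those of Cyp26b1, 23.3% of those of Aldh1a1 and 7.69% of those of Stra6. Outside the mesenchyme, then, Crabp1 lay almost wholly in such cells, while Aldh1a1 and Cyp26b1 lay in them at about their share of all UMIs. For Aldh1a2 the labels split. In TEC:mTEC2 126 of 136 UMIs, in TEC:mTEC-prol 101 of 101 and in vSMC/PC 155 of 288 were in cells with under 10 marker UMIs, where the level was 169 CPM (141 to 202), 76.0 CPM (61.9 to 92.4) and 88.0 CPM (74.7 to 103). In TEC:early Pr the level in such cells was 1.37 CPM (0.73 to 2.33), in TEC:mTEC1 1.99 CPM, and in TEC:cTEC 0 of 38 UMIs were there. Aldh1a1 in TEC:early Pr was 137 CPM (129 to 144) in cells with under 10 marker UMIs and 78.7 CPM in the others. Aldh1a3 kept 24.7 CPM (21.6 to 28.0) in the former cells of TEC:early Pr and 14.7 CPM (11.1 to 19.0) in those of TEC:cTEC, but 0.57 CPM in those of vSMC/PC. Beyond this split, the part of the marker UMIs in these levels was not tested.

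**Figure D4:**
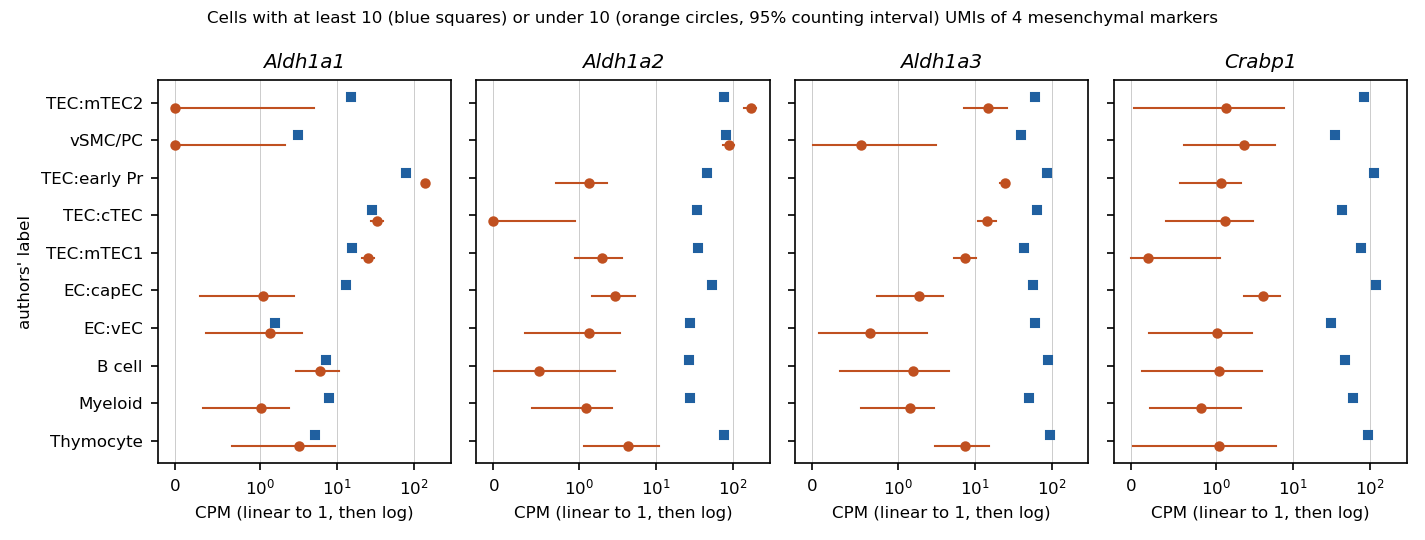
CPM of 4 members (linear to 1, then log) in 10 labels outside the mesenchyme, for cells with at least 10 UMIs of the 4 mesenchymal markers (squares) and for the other cells (circles with 95% intervals for counting error). Circles stay high for Aldh1a2 in TEC:mTEC2 (169 CPM) and vSMC/PC (88.0 CPM) and for Aldh1a1 in TEC:early Pr (137 CPM), and lie at or under 4.06 CPM for Crabp1 in the 10 labels.

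Synthesis and breakdown genes were then set against each other by label, as summed UMIs of the 3 Aldh1a genes over summed UMIs of Cyp26a1, Cyp26b1 and Cyp26c1. The sums count captured RNA molecules, are not divided by gene length and say nothing of enzyme activity, so the ratio is read between labels only. It was 52.4 (47.0 to 58.6) in mesenchymal and 6.49 (5.99 to 7.05) in epithelial cells. The epithelial value was 11.2 with cells thinned to 1000 UMIs, 10.2 with an unweighted mean over cells and 4.59 without cells of at least 10 mesenchymal marker UMIs, and its Cyp26 UMIs lay mostly in TEC:mTEC2 (362) and TEC:mTEC-prol (286). Among mesenchymal labels it ran from 451 (268 to 825) in TMC2, with 14 Cyp26 UMIs, to 8.94 (7.35 to 11.0) in TMC4, with 113. TMC1 (44.1) and capFb (44.9) were alike, each within the interval of the other, and TMC3 lay above them at 83.4 (55.4 to 132). The mural vSMC/PC had 9.45 (6.75 to 13.6) and EC:capEC 4.42 (2.87 to 7.06).

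Of the labels with a Cyp26 UMI, TEC:mTEC-prol (0.40, 0.32 to 0.50) and TEC:mTEC2 (0.43, 0.36 to 0.52) had the lowest ratios, and EC:capEC came next. There the breakdown gene was Cyp26a1, not the member Cyp26b1. Cyp26a1, which carries the element printed above, had 404 CPM in TEC:mTEC2 (354 UMIs) and 206 CPM in TEC:mTEC-prol (282 UMIs), and 97.3% of its 665 UMIs were epithelial. TEC:mTEC1 had 1.24 CPM of it. In the same 2 labels Aldh1a2 gave 86.6% and 88.6% of the Aldh1a UMIs. By contrast, TEC:early Pr had a ratio of 191 (107 to 384). MEC, with 236 Aldh1a UMIs, had 0 Cyp26 UMIs, which allows up to 7.002 CPM.

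**Figure D5:**
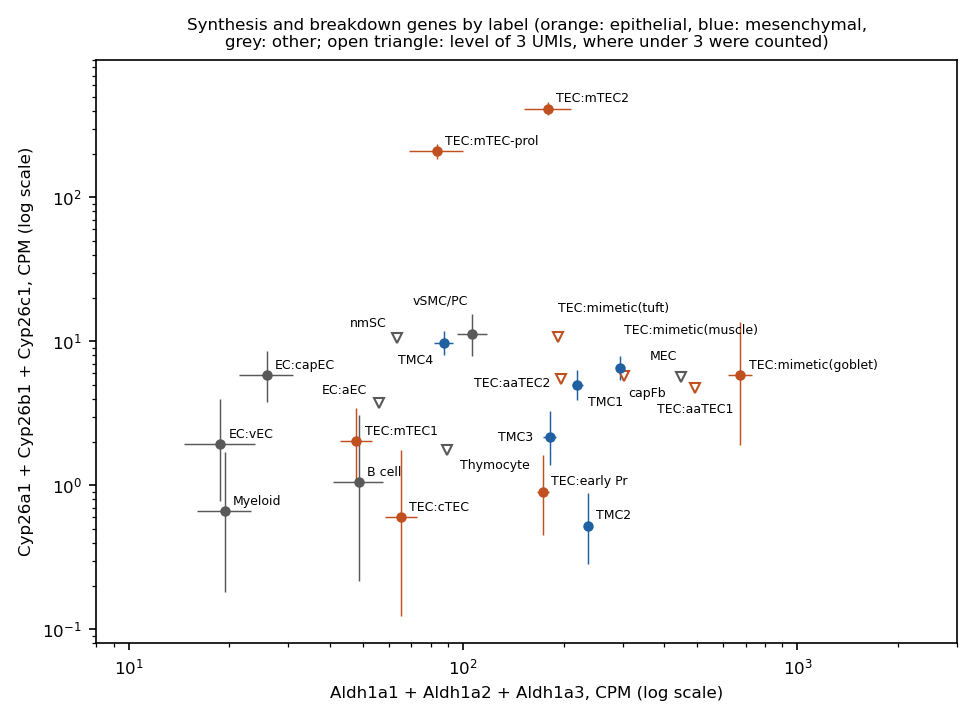
Summed CPM of the Aldh1a genes (horizontal) against that of the Cyp26 genes (vertical) per label, both on log scales, with 95% intervals for counting error; open triangles give the level of 3 UMIs for labels with under 3 Cyp26 UMIs. TEC:mTEC2 and TEC:mTEC-prol lie apart at 414 and 209 CPM of Cyp26, and TMC2 is lowest at 0.52 CPM among the labels with at least 3 Cyp26 UMIs.

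Detection in single cells was compared with the product of the 2 genes' shares. In TEC:mTEC2 19 of 61 cells held UMIs of both Aldh1a2 and Cyp26a1, where the shares (25 and 32 cells) give 13.1. In TEC:mTEC-prol 12 of 76 cells held both, where the shares (15 and 24 cells) give 4.74. Deeper cells detect more of both genes, so cells were also thinned to 5000 UMIs, which left 49 cells of TEC:mTEC2, 12 of them with both genes against 7.29 from the shares. In TMC2, thinned alike, Aldh1a3 and Crabp1 were found together in 216 of 2851 cells against 354 from the shares, 0.61 times as often. The same pair gave 0.66 times in TMC1 (52 against 78.5 cells) and 0.71 times in TMC3 (9 against 12.7 cells). Aldh1a2 with Crabp1 differed from this, with 1.10 times in TMC2 and 1.77 times in TMC1 (55 against 31.1 cells). These ratios describe 1 library and were not tested.

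Other genes of the pathway gave the context. Of 43 such genes, all had a UMI in the stroma, 29 had at least 20 UMIs in their highest label, and 3 of these 29 stood at least 3-fold above the next label, a share near the 9.44% of all genes tested. They were Rdh12, a retinal reductase, in TEC:mTEC2 (49.1 CPM, 11.7-fold), Dhrs9, an enzyme of retinol oxidation, in MEC (241 CPM, 3.86-fold) and the chemokine receptor gene Ccr9, a retinoic acid target, in Thymocyte (317 CPM, 30.8-fold). By list, counting only genes with at least 20 UMIs in their highest label, 0 of 6 carriers, 2 of 6 retinol and retinal enzymes, 0 of 3 binding and breakdown genes, 0 of 4 receptors and 1 of 14 targets stood so, with some genes on more than 1 list. The lists hold 8, 15, 4, 6 and 14 genes. Their median ratio to the next label was 1.37, against 1.21 for all genes tested.

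MEC, the label with the most Aldh1a2, also ranked first for Dhrs9, for the lipid carrier Fabp5 (829 CPM) and for Rarres2 (3202 CPM), named as a retinoid-induced gene. It was second for Lrat (28.5 CPM), which stores retinol as an ester, behind EC:vEC at 53.1 CPM, and for the blood carrier Rbp4 (140 CPM), behind TEC:cTEC at 162 CPM. TEC:mTEC2 ranked first for the targets Cyp26a1 and Stra8 (54.8 CPM, against 5.75 CPM in TEC:mTEC1), for Rdh12 and for Rbp2 (26.3 CPM). All other targets of the list were highest in other labels, such as Rarb in TMC4, Ccr9 in Thymocyte and Crabp2 in TEC:mTEC-prol. How many of all genes are highest in MEC or in TEC:mTEC2 is not given here. Crabp2, the carrier of retinoic acid to its receptors, was highest in TEC:mTEC-prol (102 CPM) and TEC:mTEC1 (90.8 CPM), where Crabp1 was at 3.66 and 16.9 CPM over all cells, and at 0.75 and 0.20 CPM in cells with under 10 mesenchymal marker UMIs. Dhrs3, which turns retinal back to retinol and is a target of retinoic acid, was level in TEC:early Pr (321 CPM) and TEC:cTEC (320 CPM) and had 3.63 CPM in TMC4. Fabp5, Rarres2, Stra8 and Rbp2 were named after their values were seen.

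Receptors were broad. Rarb, the other gene with the element in its promoter window, was highest in TMC4 at 187 CPM (179 to 195), 1.44-fold (1.34 to 1.54) above TMC3 and 2.06-fold (1.94 to 2.18) above TMC2, and had 26.3 CPM in TEC:mTEC2. Rara ran from 20.9 CPM in Myeloid to 106 CPM in nmSC. Rarg was highest in capFb (44.0 CPM) and Rxra in TMC3 (44.7 CPM), each within counting error of the next label.

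In the thymocyte library, with 8546 labelled cells and 25 labels, the members were almost absent. Over all thymocyte labels (8376 cells, 62050069 UMIs) there were 0 UMIs of Aldh1a2, which allows up to 0.059 CPM, 1 UMI of Crabp1, 2 of Cyp26b1, 3 of Stra6, 4 of Aldh1a3 and 5 of Aldh1a1. Rdh10 was the exception, with 128 UMIs (2.06 CPM, 1.72 to 2.45) and 3.07 CPM in DP. The cells labelled Thymocyte in the stromal library differed from this, with 37.9 CPM of Aldh1a2 and 47.8 CPM of Aldh1a3. In those with under 10 mesenchymal marker UMIs the levels were 4.31 CPM and 7.54 CPM. The pooled B+myeloid label of the thymocyte library had 15.5 CPM of Rdh10 (10.9 to 21.3) and 4.602 CPM of Aldh1a3 (2.30 to 8.23). Receptor RNA was present in thymocytes, with Rara at 15.7 CPM and Rxrb at 11.6 CPM, as was the target Ccr9 at 235 CPM, while Rarb had 0.29 CPM.

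For the members with at least 100 UMIs, the genes with the most alike pattern were found by Pearson correlation of log2(CPM + 1) over the 18 labels of at least 50 cells, all from 1 library and of unequal depth. Aldh1a1 was most like Trappc6a (0.90), Gnptg (0.86) and Naprt (0.86), and Aldh1a2 most like Eno2 (0.90), Rbpj (0.89) and Adamtsl5 (0.88). Aldh1a3 was most like Vgll3 (0.96), Omd (0.94) and Entpd2 (0.93), and Rdh10 like Sulf1 (0.88), Fam172a (0.87) and Man1a1 (0.87). Crabp1 was most like Dpep1 (0.94), Rtl3 (0.91) and Obp3 (0.90). The nearest genes to Cyp26b1 were less alike, with Mtcl1 at 0.81, Lasp1 at 0.77 and Hacl1 at 0.75. Between members themselves the values ran from -0.41 for Aldh1a1 with Rdh10 to 0.58 for Aldh1a3 with Crabp1. They cannot be compared with those above, whose genes were picked as the most alike.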

How the data were processed

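Stromal cells, thymocytes and a spatial section were each 1 sample, grouped by the labels' titles. The deposited files hold UMI counts per gene and barcode, made by the authors with Cell Ranger 8.0.0 on build mRatBN7.2 and handled in Seurat 5.3.0, per the submitters' processing notes. Cell labels are the authors' projected label, or the initial cluster where none was given, and the percent of mitochondrial UMIs in the authors' deposited table reached 4.99% at most. Here UMIs were summed per label and given as CPM with exact Poisson intervals, shares of cells with exact Clopper-Pearson intervals and ratios with exact conditional binomial intervals, at 95%. The annotated stromal cells held 131624350 UMIs (621 to 55374 per cell), the thymocytes 64440495. Barcodes without annotation (2934) were left out of all comparisons, and no doublet caller was run. A ratio against under 3 UMIs was taken against 3 UMIs. PCR and capture are not covered by the intervals.

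A label leads when it is at least 3-fold above the next with at least 20 UMIs. The text names the members, pathway genes that lead or are receptors or partners of a member, and for each member the 3 genes most alike. Members and lists were chosen with earlier results of these data known. Alternatives were cells thinned to 1000 UMIs (83 shallower cells left out), an unweighted mean over cells, totals that omit 150 mitochondrial, ribosomal protein and haemoglobin genes, cells below the 99th percentile of UMIs, initial clusters and labels of at least 50 cells. 1 further alternative, without cells of at least 10 mesenchymal marker UMIs outside mesenchymal labels and MEC, was added after seeing the data. On simulated data the lead rule recovered raised genes in their label, but the share recovered is not given here. Whether the rule holds at counts as low as those of Stra6 and Cyp26b1 was not tested. Tables were made in Python 3.11.15 with pandas 2.3.3 and NumPy 2.4.6, intervals with SciPy 1.17.1 and plots with matplotlib 3.10.9, at seed 7.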

Additional observations from a re-analysis of the deposited data

Results flagged for a closer look

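The 2934 barcodes of the stromal library without an annotation, 8663291 UMIs in all, enter no comparison of the report, and each member was above the level of 3 UMIs there (0.346 CPM). Aldh1a2 had 31.4 CPM, Aldh1a3 29.8 CPM, Crabp1 15.7 CPM, Aldh1a1 15.5 CPM, Rdh10 10.5 CPM and Cyp26b1 1.501 CPM, each below its level in the annotated cells. Stra6 was above it, with 1.62 CPM (0.883 to 2.71) on 14 UMIs of 7 barcodes against 0.479 CPM (0.368 to 0.612) in the annotated cells. Why these barcodes carry no annotation was not tested.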

How the results depend on the processing

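Of 110 values under 7 alternatives, 80 stayed within the counting interval of the value reported (1.5 times for counts), and 30 moved. In 0 cases did a mesenchymal to epithelial or Aldh1a to Cyp26 ratio cross 1, but the highest label changed for Aldh1a2, Aldh1a3, Rdh10 and Cyp26b1, as given below. With cells thinned to 1000 UMIs the ratio of the highest label to the next was 2.55 for Aldh1a1, 4.31 for Aldh1a2 and 1.73 for Crabp1. For Stra6 it was 5.29 (0.44 to 46.2), on 2 UMIs in TEC:mTEC2 taken against 3 UMIs. For Rdh10 it was 1.02 (TEC:mimetic(tuft) highest) and for Cyp26b1 1.89 (TEC:mimetic(goblet) highest), each resting on 1 UMI. Under the same thinning the mesenchymal to epithelial ratio was 0.108 for Aldh1a1, 7.55 for Aldh1a2, 10.2 for Crabp1 and 0.208 for Stra6. The interval of this Stra6 ratio, 0.030 to 1.23, held 1. The epithelial Aldh1a to Cyp26 ratio was then 11.2. With an unweighted mean over cells the values were 1.02 for the lead of Aldh1a3 (TMC2 highest), 6.32 and 10.5 for the mesenchymal to epithelial ratios of Aldh1a2 and Crabp1, and 10.2 for the epithelial Aldh1a to Cyp26 ratio. Without the deepest cells Crabp1 had a mesenchymal to epithelial ratio of 7.61. With initial clusters the leads were 6.02 for Aldh1a1 (TEC-e), 1.11 for Aldh1a2 (capFb) and 3.64 for Stra6 (TEC-d), and Aldh1a2 had a mesenchymal to epithelial ratio of 3.46, since MEC is then part of an epithelial cluster. Labels of at least 50 cells gave leads of 5.26 for Aldh1a1 and 1.16 for Aldh1a2 (TEC:mTEC2), because smaller labels drop out. The members with a 3-fold lead were 2 (Aldh1a1 and Stra6) under both of these, and under thinning the 1 member was Aldh1a2, since Stra6 kept under 20 UMIs. Without cells of at least 10 mesenchymal marker UMIs, chosen after seeing the data, the lead of Cyp26b1 was 1.77, the mesenchymal to epithelial ratios were 7.08 for Aldh1a2, 7.56 for Aldh1a3, 2.11 for Rdh10 and 147 for Crabp1, and the epithelial Aldh1a to Cyp26 ratio was 4.59. Except where stated, the cause was not tested. Counting limits Stra6 and Cyp26b1 most, with 63 and 411 UMIs. No paired analysis was possible because there was only 1 sample in a group.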
